A study of Mus musculus with 4 samples.

Results

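The 4 teneurins (Tenm1, Tenm2, Tenm3 and Tenm4) and 4 genes of the reelin pathway (the ligand Reln, its receptors Vldlr and Lrp8, and the adaptor Dab1) were followed across the cell classes, brain regions and genotypes of a single-cell RNA sequencing series. They were chosen by symbol, as named members of both families, and are 8 of the 43348 genes in the deposited matrices. Teneurins are large single-pass membrane proteins that pair with one another and with latrophilins across the synaptic cleft, and they help axons and dendrites find matching partners. Reelin is a secreted glycoprotein that binds the lipoprotein receptors encoded by Vldlr and Lrp8, which leads to phosphorylation of the adaptor encoded by Dab1. In the postnatal cortex and hippocampus reelin is made mainly by GABAergic interneurons, while in the embryo Cajal-Retzius cells supply it and it guides neuronal migration.

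The study sorted tdTomato-positive cells from frontal cortex and hippocampus of juvenile mice of postnatal day 18 to 20 and counted their transcripts by unique molecular identifier (UMI) with 10x Genomics 3′ chemistry. In these mice Nkx2.1-Cre, which is active in progenitors of the medial ganglionic eminence (MGE), switched on the Ai14 tdTomato reporter in both genotypes. The GRIN1-WT group, here WT, kept an intact Grin1, and in the GRIN1-KO group, here Grin1-null, the same Cre removed floxed Grin1, which encodes the obligatory subunit of NMDA receptors. Male and female littermates were used, each library pooled animals, and the dissociation buffers of all groups held tetrodotoxin, the NMDA receptor blocker APV and actinomycin D. The deletion dates from the stage at which progenitors express Nkx2.1 and reaches every lineage that passes through it.

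The 4 groups of region and genotype held 10 libraries, 3 for each WT region and 2 for each Grin1-null region. Replicate numbers came from matching the number of barcodes in each library to the cell numbers stated in the study's methods, by which replicate 1 used v2 chemistry and replicates 2 and 3 used v3 chemistry. WT cortex libraries 1, 2 and 3 held 1277, 3830 and 3930 cells after filtering, and the UMIs over all their barcodes, before filtering, were 9306756, 14212183 and 28057207. WT hippocampus libraries 1, 2 and 3 held 2219, 4599 and 3135 cells, and all their barcodes 10555408, 8782181 and 20639002 UMIs. Grin1-null cortex libraries 1 and 2 held 177 and 2578 cells (1488601 and 25688337 UMIs over all barcodes), and Grin1-null hippocampus libraries 1 and 2 held 401 and 4055 cells (3856745 and 47338167 UMIs over all barcodes). One library stood apart in depth: WT hippocampus 2 had a median of 1479 UMIs per barcode, against 4411 and 5741 in WT hippocampus 1 and 3. Pairs of libraries shared between 0 and 12 cell barcodes, at most 0.552% of the smaller library.

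Clustering gave 35 clusters, of which 30 could be named from marker genes, and the 8 members took no part in the clustering. SST-like cells (led by Sst, Elfn1 and Grin3a, with the TH-like cells counted among them as in the study), PVALB-like cells (Pvalb, Syt2, Kcnc1) and NGFC-like cells (neurogliaform, Lamp5, Hapln1, Id2) are called SST, PVALB and NGFC from here on. In SST, 227 cells of WT cortex 1, or 36.7% of its SST cells, sat in cluster 26, where they made up most of the cells. Among the unnamed clusters, 2 had SST markers and are not part of SST. They held 497 cells of WT hippocampus 2, more than the 339 cells named SST in that library. In WT hippocampus 1 and 3 they held 21 and 132 cells, beside 284 and 309 named SST. In NGFC, WT hippocampus 2 had 99.6% of its cells in cluster 15, while NGFC of the other libraries lay mostly in cluster 4. NGFC of Grin1-null cortex 1 numbered 5 and were not tested, so the NGFC genotype comparison in cortex rests on 1 null library. For that comparison the spread comes from the other groups. Levels are UMIs of a gene per 1000000 UMIs of its class in a library (CPM), and a difference is called when edgeR's quasi-likelihood test on library sums gives an adjusted p under 0.01 with a natural-log change of at least 0.1.

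Grin1 was read first, as the check of the genotype labels. In SST it stood at 153, 254 and 231 CPM in the WT cortex libraries, 121, 201 and 157 CPM in WT hippocampus, 36.3 and 28.9 CPM in Grin1-null cortex and 23.8 and 21.6 CPM in Grin1-null hippocampus. All null libraries lay below all WT libraries, and the same held in PVALB and NGFC in both regions. The log2 difference in SST was −2.73 in cortex and −2.80 in hippocampus, with adjusted p of 0.0471 and 0.0383 by edgeR (Benjamini-Hochberg), and each of the 4 null libraries was lower. In PVALB the log2 difference was −2.59 in cortex and −2.81 in hippocampus (edgeR adjusted p 0.0322 and 0.119), and in NGFC −2.22 and −2.47 (edgeR adjusted p 0.9995 and 0.536). The deleted gene itself thus missed the threshold of 0.01 by edgeR in all 6 comparisons, while DESeq2 called it in every class and region but cortical NGFC.

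Tenm2 was the member that differed most between the regions in SST. This teneurin, a known partner of latrophilins at synapses (ENSMUSG00000049336.12, GRCm38 chromosome 11, 36006656 to 37235964, minus strand) stood in SST at 29.3, 35.2 and 33.3 CPM in WT cortex libraries 1, 2 and 3 and at 157, 175 and 157 CPM in WT hippocampus libraries 1, 2 and 3. Every hippocampal library was above every cortical one, and the spread within a region was small beside the gap. Within replicate numbers the log2 difference of CPM was 2.38, 2.28 and 2.20, a mean of 4.88-fold. By edgeR's quasi-likelihood test over 11964 genes, SST hippocampus minus cortex gave a log2 difference of 2.27 (SE 0.22) with a Benjamini-Hochberg adjusted p of 0.00824, higher in 3 of 3 pairs. In this fit, which did not pair replicate numbers, Tenm2 was 1 of 5 genes called (0.0418% of those tested) and the only member called. The others, named after their values were seen, were Ctsc, ENSMUSG00000102640.1, Aga and, lower in hippocampus, Sfrp2.

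The call was lost with fewer libraries, while the size of the difference hardly moved. Leaving out WT cortex 1, 2 or 3 gave edgeR adjusted p of 0.0802, 0.0857 and 0.102, and leaving out WT hippocampus 1 or 3 gave 0.0253 and 0.0804, while the log2 difference stayed at 2.21 or above in these 5 fits with 3 libraries against 2. It was kept without WT hippocampus 2. With cells assigned by marker score the edgeR adjusted p was 0.0119, at a log2 difference of 2.19, and with the unnamed SST-marker clusters counted as SST, an alternative chosen after seeing the data, it was 0.0118 at 2.23. Libraries of the same number moved together, and with the replicate number as a block Tenm2 had an adjusted p of 6.23e-05, and Tenm3 passed as well, so that 2 members were among 180 genes called (1.5% of those tested).

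The Grin1-null libraries, which the region test did not use, held a like gap. Tenm2 in SST stood at 30.5 and 24.0 CPM in Grin1-null cortex and at 162 and 122 CPM in Grin1-null hippocampus. The log2 difference between the regions was 2.37 and 2.30 within the null replicate numbers. Both null groups overlapped the WT group of their region, and the edgeR test of the genotype difference called Tenm2 in neither region.

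The regional gap in Tenm2 was present inside single SST clusters. Of 11 pairs of same-numbered WT libraries over 6 clusters, 10 had more Tenm2 in hippocampus. Mean levels were 225 against 55.9 CPM in cluster 2, 149.8 against 26.7 CPM in cluster 6 (led by Myh8 and Reln), 122 against 27.3 CPM in cluster 8 (Crh and Tac2) and 58.8 against 17.1 CPM in the TH-like cluster 11. The exception was cluster 22, the Chodl and Nos1 cells known for long-range axons, with 21.5 CPM in hippocampus against 36.1 CPM in cortex over 1 pair, the hippocampal value from 21 cells with 2 Tenm2 UMIs.

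More hippocampal than cortical SST cells had a Tenm2 transcript. With every cell thinned to 1000 UMIs, 15.5% of 928 WT hippocampal SST cells had one (95% Wilson interval 13.3 to 18.0), against 3.09% of 3167 WT cortical SST cells (2.55 to 3.76). Too shallow for this were 4 hippocampal and 13 cortical cells. Unthinned, the shares were 49.0% and 19.3%, at median depths of 6013 and 7516 UMIs. In oligodendrocyte-like cells, with 2.92 CPM of Tenm2, thinned shares were 0.307% in WT hippocampus and 0.223% in WT cortex, at median depths of 3137 and 4062 UMIs. These intervals cover counting error only.

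Transcripts of other cell types also differed between the regions in the sorted SST cells, those of oligodendrocytes the most abundant among them. Summed levels of 7 oligodendrocyte markers, Mbp the most abundant of them, were 247, 345 and 173 CPM in WT cortex 1, 2 and 3 and 784, 1347 and 564 CPM in WT hippocampus 1, 2 and 3, with all 7 detected in each library and no overlap. Oligodendrocyte-like cells themselves held 2.92 CPM of Tenm2, 4.38 CPM of Tenm3 and 46.3 CPM of Tenm4. Summed markers of oligodendrocyte precursors lay at 10.8 to 17.9 CPM in WT cortical SST and 34.1 to 94.8 CPM in WT hippocampal SST, and those of committed precursors at 4.38 to 12.5 CPM and 20.8 to 134 CPM. Precursor cells themselves held 10.2 CPM of Tenm2, 6.03 CPM of Tenm3 and 3.30 CPM of Tenm4, and committed precursors 1.56, 2.46 and 22.5 CPM. Choroid plexus markers reached 254 CPM in SST of WT hippocampus 3, against at most 1.11 CPM in WT cortex, and choroid plexus cells of WT libraries held 0 UMIs of Tenm2. In that library they had 7.36 CPM of Tenm3 and 116 CPM of Tenm4, against 77.3 and 75.7 CPM in its SST cells. The part of transcripts of any of these cell types in the regional differences of Tenm2, Tenm3 and Tenm4 was not tested.

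**Figure D1:**
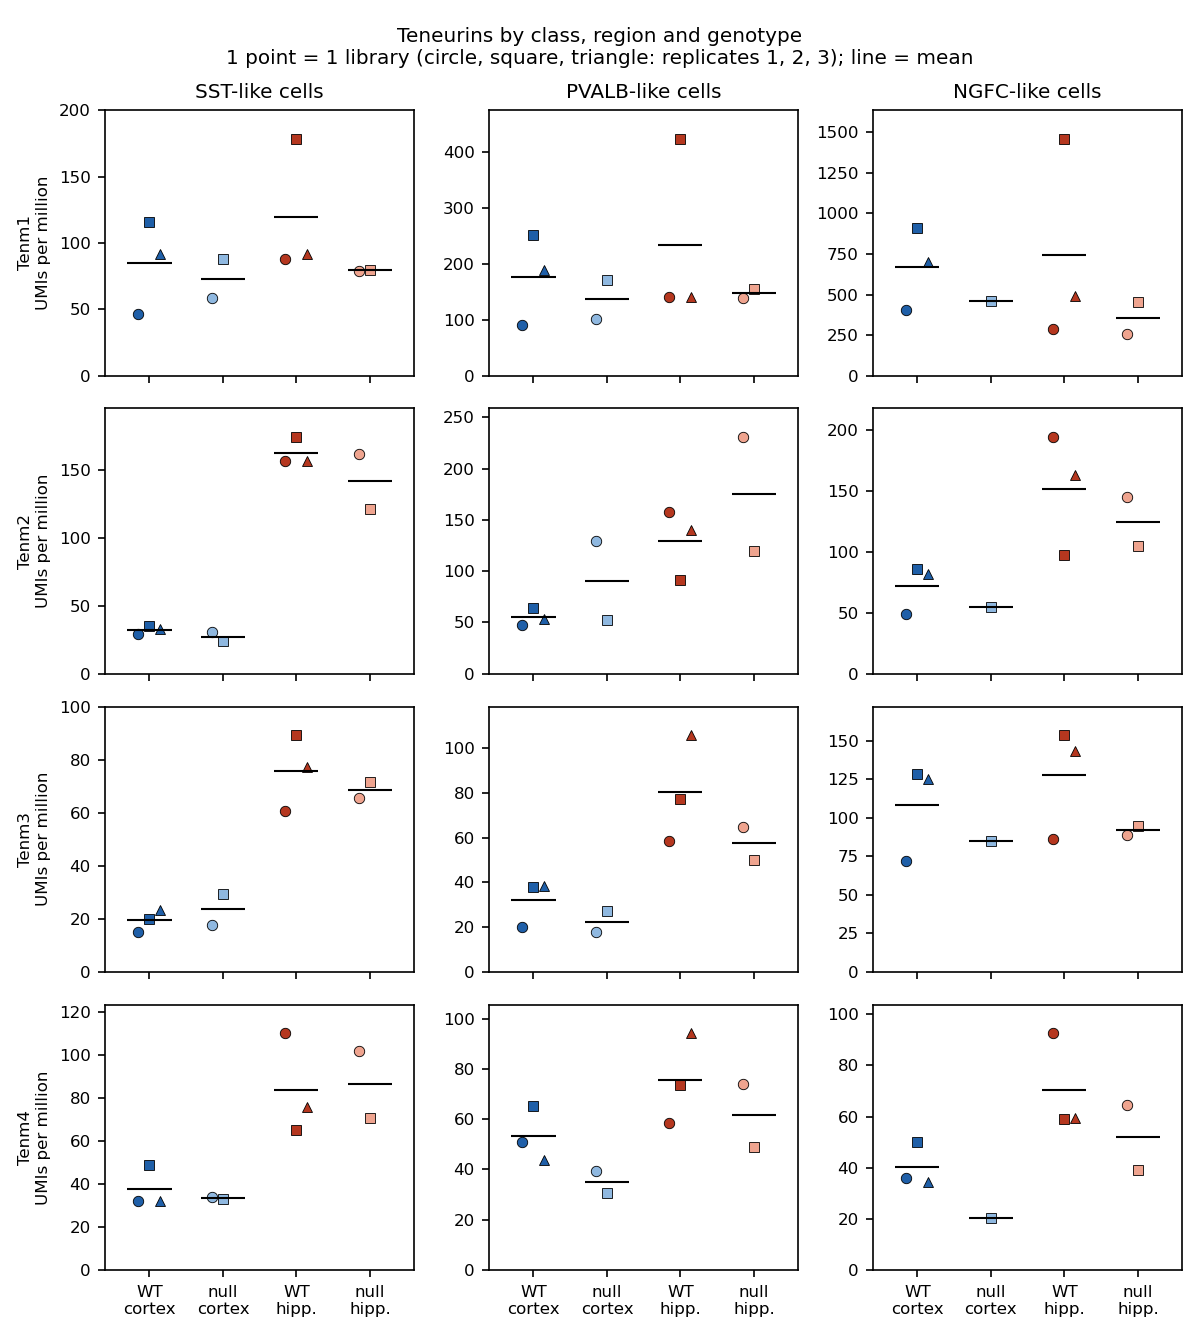
Levels (CPM, vertical axis) of each teneurin in SST, PVALB and NGFC by region and genotype, with 1 point per library of at least 10 cells and a line for each group mean. Tenm2 in SST sits at 29.3 to 35.2 CPM in WT cortex and at 157 to 175 CPM in WT hippocampus, and Tenm1 is highest in WT hippocampus 2 in all 3 classes.

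Tenm3, a teneurin known for matching topographic connections in the hippocampus and visual system, had the same direction. Tenm3 (ENSMUSG00000031561.11, chromosome 8, 48227682 to 48843951, minus strand) stood in SST at 15.03, 20.1 and 23.3 CPM in WT cortex and at 60.7, 89.3 and 77.3 CPM in WT hippocampus. Every hippocampal library was above every cortical one. The log2 difference in SST was 1.90 (SE 0.27), higher in 3 of 3 pairs, with an adjusted p of 0.0404 by edgeR (Benjamini-Hochberg), which missed the threshold. With the replicate block the adjusted p was 3.23e-04, and DESeq2 gave 2.24e-07. All 11 cluster pairs in SST were higher in hippocampus, with means of 104 against 17.6 CPM in cluster 2 and 80.3 against 49.1 CPM in the TH-like cluster 11. In Grin1-null SST it stood at 17.6 and 29.5 CPM in cortex and at 65.8 and 71.6 CPM in hippocampus, again with no overlap.

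Tenm4, a teneurin with a known part in myelination as well as in neurons, also lay higher in hippocampal SST cells, by less. Tenm4 (ENSMUSG00000048078.12, chromosome 7, 96171246 to 96911093, plus strand) stood at 32.3, 48.7 and 32.2 CPM in WT cortical SST and at 110.2, 65.0 and 75.7 CPM in WT hippocampal SST. The regions did not overlap, and WT hippocampus 2 was nearest to cortex. Its log2 difference was 1.10 (SE 0.28), higher in 3 of 3 pairs, with an adjusted p of 0.218 by edgeR (Benjamini-Hochberg), so it was not called. Inside SST clusters Tenm4 was higher in hippocampus in 9 of 11 pairs, unevenly, with log2 differences of 1.96 in cluster 2, 1.28 in cluster 11, 0.38 in cluster 6 and 0.19 in cluster 8. Cluster 22 lay the other way, from 1 Tenm4 UMI in hippocampus. Cluster 2 held 44.4%, 56.3% and 25.9% of SST in WT hippocampus 1, 2 and 3 and 13.7%, 27.5% and 22.9% in WT cortex 1, 2 and 3, and the part of this in the class difference was not tested. Grin1-null SST had 34.0 and 33.0 CPM in cortex against 101.9 and 70.9 CPM in hippocampus.

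Tenm1, the X-linked teneurin (ENSMUSG00000016150.11, chromosome X, 42527866 to 43429126, minus strand), overlapped between the regions in SST. Its levels were 46.2, 116 and 91.5 CPM in WT cortex 1, 2 and 3 and 87.9, 179 and 92.0 CPM in WT hippocampus 1, 2 and 3. The log2 difference between the regions was 0.45, the smallest of the 4 teneurins. Within replicate numbers Tenm1 was higher in hippocampus in 3 of 3 pairs, by 0.91, 0.62 and 0.0078, and inside SST clusters in 10 of 11 pairs. The null pairs were split (0.42 and −0.13), and leaving out 1 library moved the WT value between 0.01, without WT hippocampus 2, and 0.71, without WT cortex 2. The shallow WT hippocampus 2 had the highest Tenm1 of all libraries in each of SST, PVALB and NGFC, and the part of its depth in this was not tested.

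In PVALB cells, fast-spiking basket and chandelier types, the edgeR test between the regions called 3 of 8783 genes (0.0342%), named after their values were seen as Rxfp3, Lamp5 and Ddit4l, and none of the 8 members. At an unadjusted p under 0.05 it had 389 genes, 2 of them members, and DESeq2 called 25 genes, with 0 members. Tenm2 in PVALB stood at 48.0, 64.3 and 53.6 CPM in WT cortex and at 158, 91.8 and 140.1 CPM in WT hippocampus, a log2 difference of 1.22 (SE 0.27). Tenm3 stood at 20.3, 38.2 and 38.2 CPM in WT cortex and at 58.4, 77.4 and 106 CPM in WT hippocampus, a log2 difference of 1.32 (SE 0.32). For both genes every WT hippocampal library was above every cortical one, and inside PVALB clusters Tenm2 was higher in all 6 pairs and Tenm3 in 4 of 6. The exceptions for Tenm3 were in cluster 24, with means of 32.9 CPM in hippocampus and 24.4 CPM in cortex and 1 of 3 pairs higher. With the replicate block Tenm3 was called in PVALB (edgeR adjusted p 0.0043, higher in 3 of 3 pairs), 1 of 54 genes (0.615%), and Tenm2 was not (adjusted p 0.0107). The 7 markers of oligodendrocytes summed to 108 to 365 CPM in WT cortical PVALB and to 630.4 to 909 CPM in WT hippocampal PVALB, and Tenm2 and Tenm3 in oligodendrocyte-like cells are given above. The part of oligodendrocyte transcripts in the PVALB differences was not tested.

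In NGFC the edgeR test between the regions called 0 of 7833 genes (0%), with 204 genes at an unadjusted p under 0.05, 2 of them members, and 4 called by DESeq2. The replicate block called 4 genes (0.0511%), none of them a member. Tenm2 in NGFC stood at 49.0, 85.7 and 81.4 CPM in WT cortex and at 194, 97.4 and 163 CPM in WT hippocampus, a log2 difference of 1.09 (SE 0.36). Inside NGFC clusters Tenm2 was higher in hippocampus in 2 of 3 pairs, both in cluster 4, while cluster 15 had 98.4 CPM against 406 CPM in its 1 pair, the cortical value from 10 cells with 5 Tenm2 UMIs. Tenm4 in NGFC stood at 35.9, 49.96 and 34.4 CPM against 92.6, 59.0 and 59.5 CPM, a log2 difference of 0.84 (SE 0.35). Neither pair of groups overlapped, though WT hippocampus 2, with its NGFC nearly all in cluster 15, was the closest to cortex in both. Tenm3 in NGFC overlapped between the regions, at 71.9 to 129 CPM in WT cortex and 86.2 to 154 CPM in WT hippocampus, with a log2 difference of 0.27 and 3 of 3 pairs higher in hippocampus (0.26, 0.26 and 0.19), and ran from 0.07 to 0.49 with 1 library left out. The same 7 markers of oligodendrocytes summed to 69.0 to 828 CPM in WT cortical NGFC and to 379.8 to 1771 CPM in WT hippocampal NGFC, with overlap. The part of these transcripts in the NGFC differences was not tested. Of the 8 members, 6 were higher in hippocampus in SST, 5 in PVALB and 6 in NGFC, with median log2 differences of 0.35, 0.49 and 0.19 against 0.023, 0.022 and 0.015 over all genes tested. Whether the regional difference itself differs between SST, PVALB and NGFC was not tested.

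Among cell classes of the WT libraries, the 4 teneurins had different orders, described here without a test because the classes come from the same cells. Tenm1 was highest in NGFC at 709 ± 430 CPM (SD, n = 6 libraries), then PVALB at 206 ± 120.2 CPM, glutamatergic-like cells at 106 ± 41.6 CPM (n = 5) and SST at 102 ± 43.8 CPM. The order of NGFC above PVALB above SST held in 6 of 6 libraries, though the ranges of neighbouring classes met. Tenm2 had means of 112 ± 55.0 CPM in NGFC, 97.7 ± 71.6 CPM in SST, 92.6 ± 46.5 CPM in PVALB and 87.5 ± 63.7 CPM in glutamatergic-like cells, over libraries of both regions. Its order depended on the region: in WT cortex SST lay at 29.3 to 35.2 CPM, below PVALB at 48.0 to 64.3 CPM and NGFC at 49.0 to 85.7 CPM without overlap. In WT hippocampus SST had the highest mean of the 3, at 163 CPM against 151 CPM in NGFC and 129.8 CPM in PVALB, with overlap. Between the glutamatergic-like cells and the next class, oligodendrocyte precursors at 10.2 ± 9.95 CPM, the Tenm2 ranges were apart. Tenm3 was highest in NGFC at 118 ± 32.3 CPM in 6 of 6 libraries among the interneuron classes, and astrocyte-like cells (57.6 ± 35.7 CPM) had a mean near those of PVALB (56.4 ± 31.2 CPM) and SST (47.6 ± 32.3 CPM). Tenm4 was highest in glutamatergic-like cells at 96.5 ± 32.9 CPM and lay at 64.3 ± 18.1 CPM in PVALB, 60.7 ± 29.9 CPM in SST and 55.2 ± 21.3 CPM in NGFC. Oligodendrocyte-like cells held 46.3 ± 18.8 CPM of Tenm4, and their precursors 3.30 CPM.

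**Figure D2:**
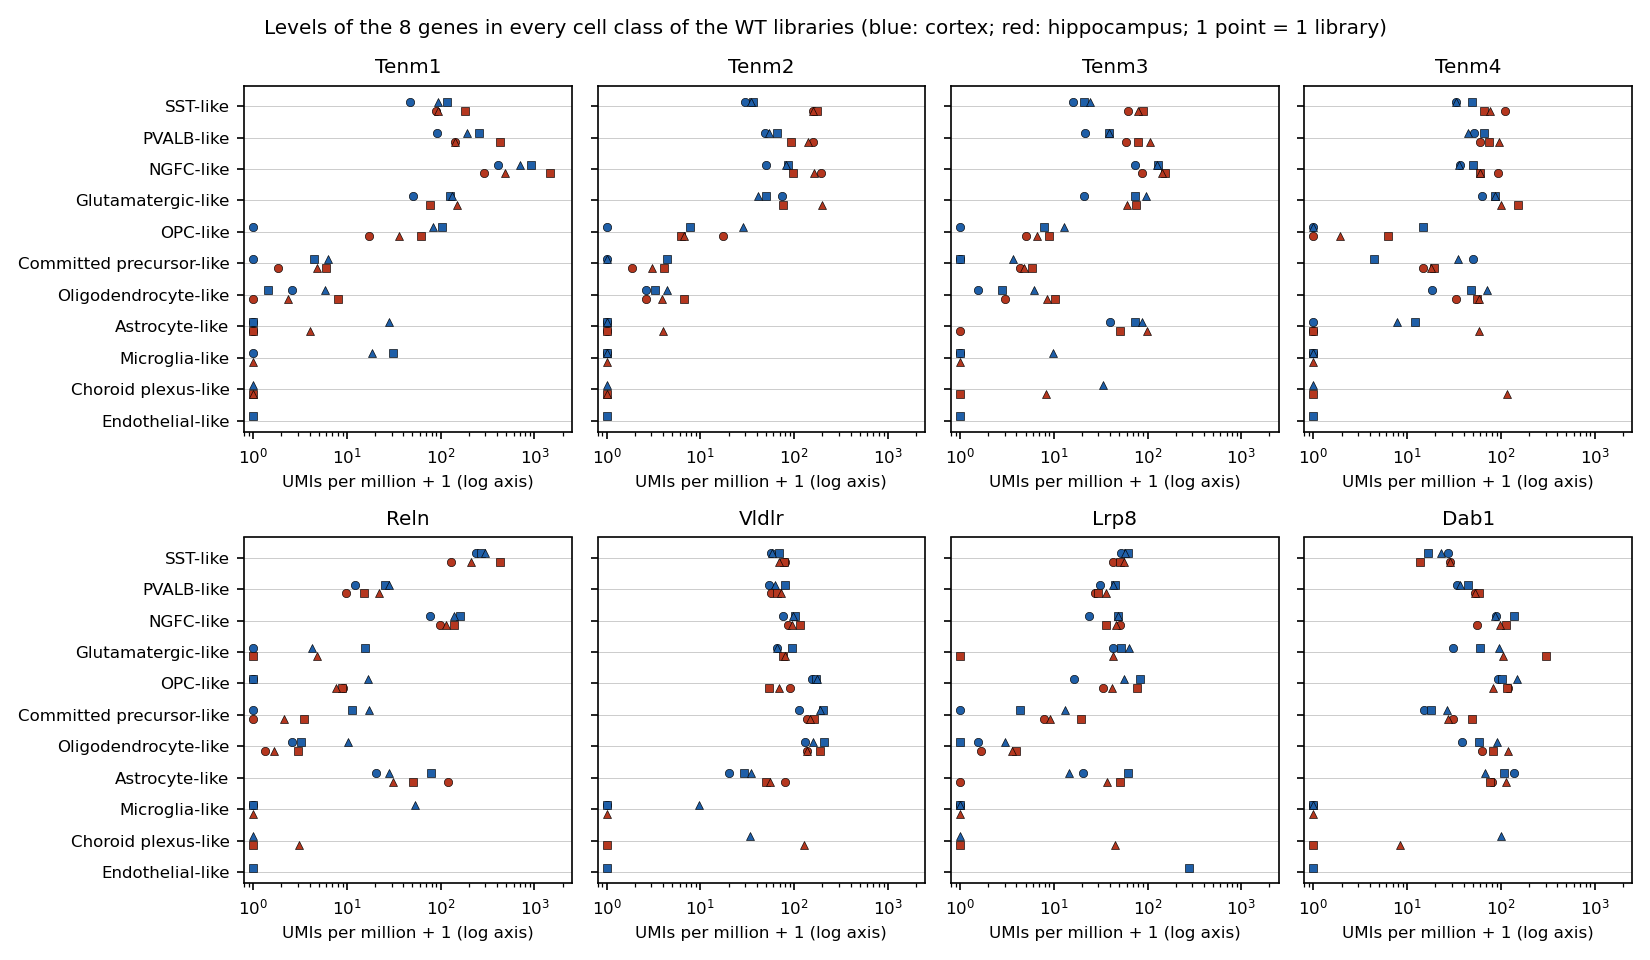
Levels (CPM + 1, log axis) of each of the 8 genes in the named cell classes, with 1 point per WT library that had at least 10 cells of the class, cortex in blue and hippocampus in red. Tenm1 is highest in NGFC, with a mean of 709 CPM, Reln in SST at 261 CPM and Vldlr in oligodendrocyte-like cells at 159 CPM.

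The question of the genotype comparisons was which genes change in MGE-derived cells that grow up without NMDA receptors. None of the teneurins was called. In SST the edgeR test called 0 of 12924 genes in cortex (0%) and 0 in hippocampus, with 278 and 418 genes at an unadjusted p under 0.05, none of them a member, while DESeq2 called 2 genes and 1 gene, again no member. In PVALB edgeR called 1 of 9689 genes in cortex (0.0103%), Spp1, named after its value was seen, and 0 in hippocampus, with 354 and 299 genes at an unadjusted p under 0.05 and 12 genes and 1 gene by DESeq2. In NGFC edgeR called 0 of 9780 genes in each region, with 137 and 314 genes at an unadjusted p under 0.05 and 0 genes and 1 gene by DESeq2. Over these 6 comparisons no member had an unadjusted p under 0.05, and their adjusted p ran from 0.964 to 1.0.

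The members' values lay mostly below 0 all the same. Of the 8 log2 differences of null minus WT, 7 were negative in SST in each region, 6 and 5 in PVALB cortex and hippocampus, and 7 and 8 in NGFC cortex and hippocampus. Their median was −0.30 in SST cortex and −0.26 in SST hippocampus, against a median over all genes tested of −0.02 and −0.03. In PVALB the members' median was −0.38 in cortex and −0.22 in hippocampus, and in NGFC −0.39 and −0.35, against medians over all genes tested of −0.0045, −0.013, −0.015 and −0.042 in the same order. Depth differed as well: the median in cortical SST was 8767 and 14914 UMIs per cell in the null libraries against 8018, 5262 and 8819 in the WT libraries, and its part in these medians was not tested.

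Among the teneurins, Tenm1 in hippocampal SST and Tenm4 in cortical PVALB and NGFC lay lower in the null libraries without overlap. Tenm1 stood at 87.9, 179 and 92.0 CPM in WT and at 78.9 and 79.9 CPM in Grin1-null, a log2 difference of −0.56 (SE 0.41). WT hippocampus 2 was the highest by far, and without it the difference was −0.14. Tenm4 in cortical PVALB stood at 50.8, 65.1 and 43.6 CPM in WT and at 39.5 and 30.8 CPM in Grin1-null, a log2 difference of −0.66 (SE 0.35), or −0.36 without Grin1-null cortex 2. PVALB make-up differed too: cluster 32 held 22.2% and 23.6% of cortical null PVALB and 2.0 to 7.25% of WT, and cluster 24 held 31.0% in Grin1-null cortex 2. Inside cluster 3 Tenm4 lay at 19.2 to 20.7 CPM in null and 42.7 to 54.9 CPM in WT cortex. Cluster 3 of Grin1-null cortex 1 held 20 cells, and the part of make-up in the class difference was not tested. In cortical NGFC Tenm4 stood at 35.9, 49.96 and 34.4 CPM in WT and at 20.2 CPM in the single null library tested, a log2 difference of −0.98 (SE 0.54). The largest member value, Tenm1 in hippocampal NGFC at −1.08 (SE 0.60), overlapped between the genotypes and was −0.09 without WT hippocampus 2. Tenm2 in PVALB lay the other way, at 0.60 in cortex and 0.42 in hippocampus with overlap, and each turned negative (−0.11 and −0.15) without the null library numbered 1. None of these differences passed the edgeR test. Of the 8 members, 2 lay lower without overlap in SST in each region and 1 in NGFC in each region. In PVALB it was 1 in cortex and 0 in hippocampus. How many of all genes tested lay without overlap was not counted, here or between the regions. With 1 or 2 null libraries, groups can lie apart without a genotype difference.

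The genotype by region interaction, which asks whether loss of Grin1 acts differently in the regions, called 0 genes in SST, PVALB and NGFC by edgeR, with 75, 111 and 38 genes at an unadjusted p under 0.05 and 0 genes by DESeq2. Members' interaction values on the log2 scale ran from −0.46 to 0.23 in SST, from −0.70 to 0.78 in PVALB and from −0.54 to 0.54 in NGFC, and none of these 8 genes had an unadjusted p under 0.05 in any of the 3 classes.

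Reln, which encodes the secreted ligand (ENSMUSG00000042453.10, chromosome 5, 21884454 to 22344702, minus strand), set the interneuron classes apart. Its mean level was 261 ± 99.3 CPM in SST, 120.0 ± 30.9 CPM in NGFC and 17.8 ± 7.53 CPM in PVALB (SD, n = 6 WT libraries each). The order of SST above NGFC above PVALB held in 6 of 6 libraries. Astrocyte-like cells held 53.7 ± 37.8 CPM, and oligodendrocyte-like cells 2.69 CPM. Over libraries the ranges of SST and NGFC met, from 128 to 425 CPM and from 75.1 to 159 CPM.

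Within SST, Reln was a gene of some clusters and not of others. WT means were 475 CPM in cluster 6, for which Reln is one of the leading genes, 332 CPM in cluster 26, 268 CPM in cluster 2 and 196 CPM in cluster 8. The Chodl and Nos1 cluster 22 held 3.71 CPM and the TH-like cluster 11 held 2.69 CPM, as little as oligodendrocyte-like cells. The SST class therefore mixes cells with high and with near-background Reln.

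Reln overlapped between the regions in all 3 interneuron classes. In SST it stood at 236, 270.0 and 297 CPM in WT cortex 1, 2 and 3 and at 128, 425 and 208 CPM in WT hippocampus 1, 2 and 3, a log2 difference of −0.12. The hippocampal libraries lay on both sides of the cortical ones. Their make-up differed: the Reln-rich cluster 6 held 2.47%, 34.2% and 25.6% of SST in WT hippocampus 1, 2 and 3. Cluster 26 held 18.3% in WT hippocampus 1. The TH-like cluster 11, with near-background Reln, held 15.1%, 0.59% and 17.5% in WT hippocampus 1, 2 and 3. The part of this make-up in the Reln levels was not tested. In PVALB the log2 difference was −0.46 and in NGFC −0.05. Leaving out 1 library moved these between −0.75 and 0.18 in SST, −0.84 and −0.20 in PVALB and −0.28 and 0.13 in NGFC. Within replicate numbers Reln in PVALB was lower in hippocampus in 3 of 3 WT pairs (−0.31, −0.72 and −0.35). The Grin1-null pairs were split (−0.26 and 0.55). The PVALB clusters went opposite ways: cluster 3 had 7.94 CPM in hippocampus against 23.3 CPM in cortex, lower in 3 of 3 pairs, and cluster 24 had 34.3 CPM against 4.14 CPM, higher in 3 of 3 pairs. Inside SST clusters, 3 of 11 same-numbered pairs were higher in hippocampus, and in cluster 2 the mean was 201 CPM in hippocampus against 335 CPM in cortex.

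Reln in Grin1-null cells overlapped with WT as well. In SST it stood at 276 and 126 CPM in Grin1-null cortex 1 and 2 and at 138 and 260.5 CPM in Grin1-null hippocampus 1 and 2. The null libraries of cortex differed from each other more than the WT libraries did. Clusters 11 and 22, with near-background Reln, held 26.5% and 22.8% of SST in Grin1-null cortex 2, against 7.14% and 3.57% in Grin1-null cortex 1, and 7.49 to 15.7% and 3.95 to 12.9% in WT cortex. The part of cluster make-up in the Reln level was not tested. Its log2 difference of null minus WT was −0.42 (SE 0.48) in SST cortex and −0.33 (SE 0.48) in SST hippocampus, and in NGFC −0.08 and −0.13, with none called. Leaving out 1 library moved the SST values between −1.11 and 0.07 in cortex and between −0.80 and 0.28 in hippocampus, so their sign is not settled. In PVALB the difference was −0.72 (SE 0.51) in cortex, the lowest of the members there, and 0.05 in hippocampus, with overlap, and without Grin1-null cortex 2 the cortical value was 0.26. Cluster 3 held 74.1% and 45.5% of PVALB in Grin1-null cortex 1 and 2 and 81.9 to 92.3% in WT cortex. Inside this cluster Reln lay at 20.7 to 33.6 CPM in null and 13.1 to 29.7 CPM in WT cortex. The part of PVALB make-up in the class value was not tested.

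The share of cells with a Reln transcript was compared because the ligand marks only part of each class. With cells thinned to 1000 UMIs, SST of WT cortex 1, 2 and 3 had shares of 20.4%, 23.2% and 24.7%, and Grin1-null cortex 1 and 2 had 28.6% and 12.3%. The null shares lay on either side of the WT shares, the lower one in the library with the most SST cells in clusters 11 and 22, whose part in the share was not tested. The means were 22.8 ± 2.22% and 20.4 ± 11.5% (SD, n = 3 and 2), a difference of −2.34 points with p = 0.8 by an exact permutation test over libraries, whose smallest possible p here was 0.1. In hippocampal SST the shares were 10.9%, 32.2% and 17.5% in WT and 11.6% and 20.2% in Grin1-null, a difference of −4.28 points (exact permutation p = 0.9). The cluster make-up of the WT hippocampal libraries differed, as given above, and its part in these shares was not tested. In hippocampal NGFC the difference was −0.662 points (exact permutation p = 1.0), and cortical NGFC had 1 null library, too few for this test. Oligodendrocyte-like cells had 0 to 0.937% per library, so all of these shares were above that background. Unthinned, mean shares in SST were 59.8% in WT and 47.7% in Grin1-null cortex and 48.9% and 54.1% in hippocampus, so the sign in hippocampus turned without thinning. Of SST cells, 0 to 13 per library were too shallow to be thinned, and of NGFC up to 98, in WT hippocampus 2.

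**Figure D3:**
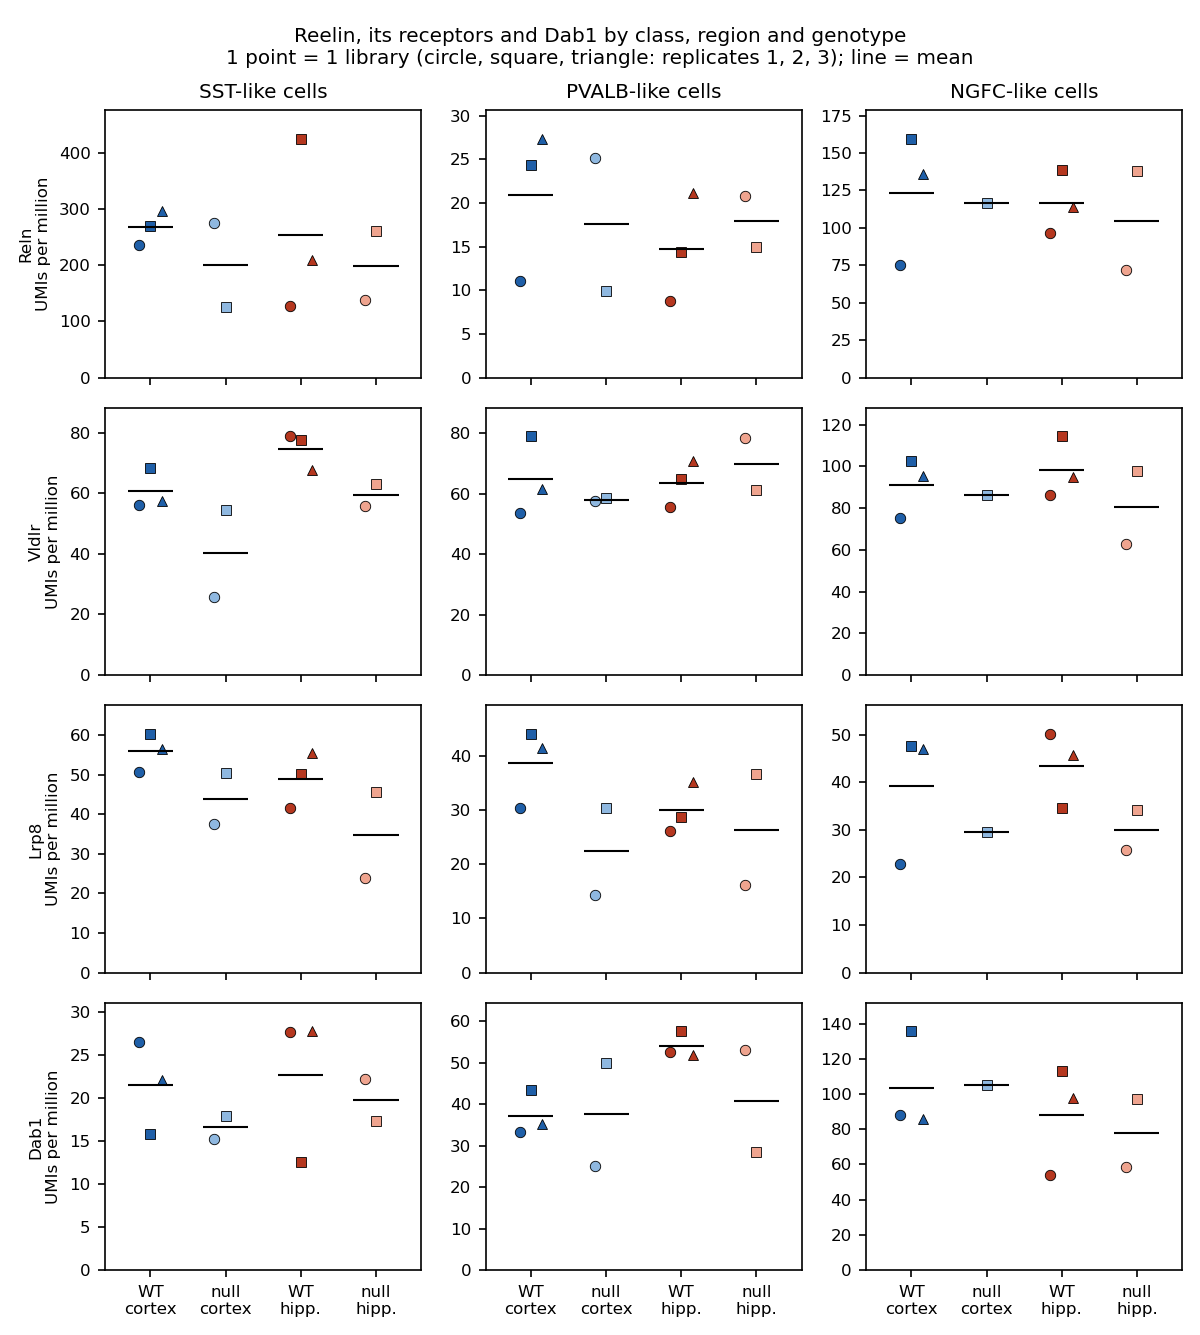
Levels (CPM, vertical axis) of Reln, Vldlr, Lrp8 and Dab1 in SST, PVALB and NGFC by region and genotype, with 1 point per library of at least 10 cells and a line for each group mean. Reln in SST spans 128 to 425 CPM among the WT libraries and is at most 27.3 CPM in the WT libraries of PVALB.

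**Figure D4:**
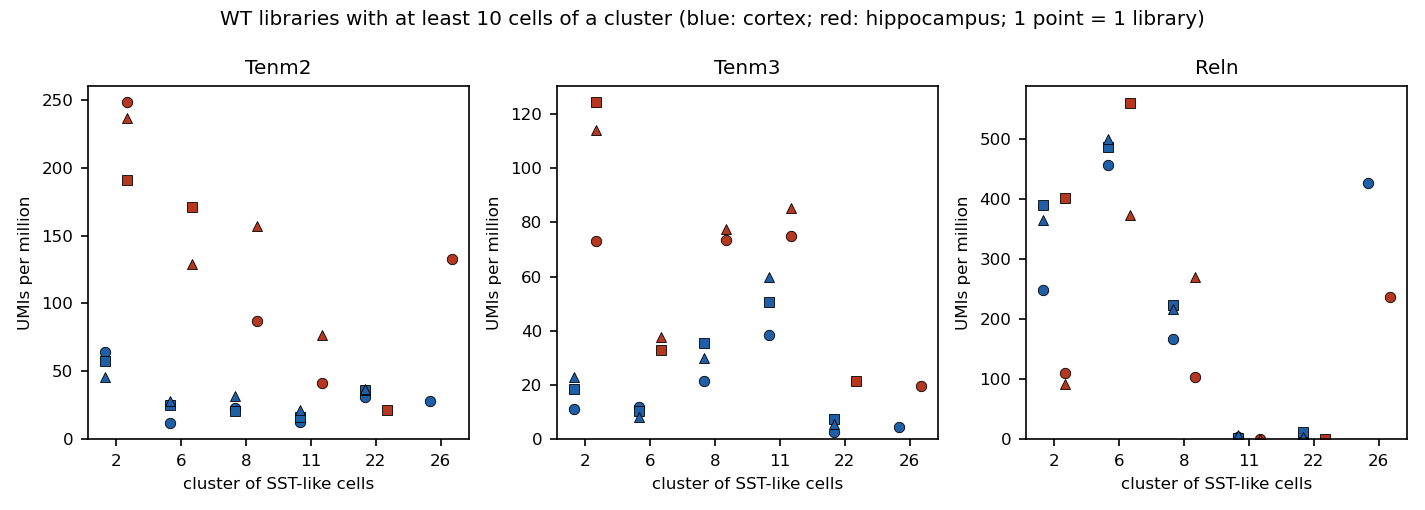
Levels (CPM, vertical axis) of Tenm2, Tenm3 and Reln in each SST cluster, with 1 point per WT library that had at least 10 cells of the cluster, cortex in blue and hippocampus in red. Tenm2 is higher in hippocampus in 10 of 11 same-numbered pairs, while Reln is near 0 in clusters 11 and 22 and reaches a mean of 475 CPM in cluster 6.

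Vldlr, the very low density lipoprotein receptor (ENSMUSG00000024924.10, chromosome 19, 27216484 to 27254231, plus strand), was a gene of the oligodendrocyte lineage in these sorted cells more than of the interneurons. Its mean level was 159 ± 31.0 CPM in oligodendrocyte-like cells, 158 ± 33.5 CPM in committed precursors and 118 ± 54.5 CPM in oligodendrocyte precursors (SD, n = 6 WT libraries each). These neighbours did not differ beyond their spread. Among the interneurons NGFC came first in 6 of 6 libraries, at 94.7 ± 13.4 CPM, with SST at 67.7 ± 9.62 CPM and PVALB at 64.2 ± 9.55 CPM. Microglia-like cells held 2.19 CPM, and their range was apart from that of astrocyte-like cells, the class next above them.

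Between regions the log2 differences of Vldlr were 0.25 in SST, −0.01 in PVALB and 0.15 in NGFC, the last 2 crossing 0 with 1 library left out, and the part of oligodendrocyte transcripts in them was not tested. Within replicate numbers Vldlr in SST was higher in hippocampus in 3 of 3 WT pairs (0.48, 0.18 and 0.23) and in both Grin1-null pairs (1.09 and 0.21). In cortical SST it stood at 56.1, 68.5 and 57.4 CPM in WT and at 25.8 and 54.5 CPM in Grin1-null. Both null libraries were below all WT libraries, though Grin1-null cortex 2 lay close to WT cortex 1. The log2 difference was −0.52 (SE 0.29), the lowest of the members in cortical SST. It was −0.17 without Grin1-null cortex 1 and −1.21 without Grin1-null cortex 2, so its size rests on which null library is kept. Summed markers of other cells also differed in cortical SST: those of oligodendrocytes lay at 75.0 to 194 CPM in null and 173 to 345 CPM in WT, of oligodendrocyte precursors at 2.35 to 12.9 CPM and 10.8 to 17.9 CPM, both with overlap, and of astrocytes at 110.2 to 132 CPM and 64.9 to 92.1 CPM, without. Their part in the Vldlr values was not tested. In hippocampal SST the levels were 78.8, 77.6 and 67.6 CPM in WT and 55.9 and 63.2 CPM in Grin1-null, a log2 difference of −0.29 (SE 0.29). The groups did not overlap there either, and neither difference passed the edgeR test.

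Lrp8, also called apolipoprotein E receptor 2 (ENSMUSG00000028613.10, chromosome 4, 107802261 to 107876840, plus strand), had another order of classes. SST held 52.5 ± 6.58 CPM, oligodendrocyte precursors 50.2 ± 25.9 CPM, NGFC 41.3 ± 10.5 CPM and PVALB 34.4 ± 7.21 CPM (SD, n = 6 WT libraries each), and these neighbours did not differ beyond their spread. Oligodendrocyte-like cells held 1.47 ± 1.23 CPM. The highest WT value, 279 CPM, came from 26 endothelial-like cells with 21 Lrp8 UMIs in WT cortex 2, and the 35 such cells of Grin1-null cortex 2 had 281 CPM from 23 UMIs. Across the WT libraries, then, the 2 reelin receptors took opposite places in oligodendrocyte-like cells, where Vldlr had its highest mean and Lrp8 ranked near its lowest.

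Regional log2 differences of Lrp8 were −0.24 in SST, −0.34 in PVALB and 0.15 in NGFC, with overlapping libraries. Within replicate numbers it was lower in hippocampus in 3 of 3 pairs in SST (−0.28, −0.26 and −0.03) and in PVALB (−0.21, −0.60 and −0.23), and inside clusters it was higher in hippocampus in 4 of 11 SST pairs and 0 of 6 PVALB pairs. The Grin1-null pairs were also lower in SST (−0.63 and −0.14) but higher in PVALB (0.16 and 0.26). Leaving out 1 library moved the WT value between −0.36 and −0.15 in SST and between −0.07 and 0.33 in NGFC. In cortical SST Lrp8 stood at 50.8, 60.4 and 56.6 CPM in WT and at 37.5 and 50.5 CPM in Grin1-null, a log2 difference of −0.32 (SE 0.28), or −0.17 without Grin1-null cortex 1 and −0.55 without Grin1-null cortex 2. In hippocampal NGFC it stood at 50.1, 34.7 and 45.7 CPM in WT and at 25.8 and 34.1 CPM in Grin1-null, a log2 difference of −0.49 (SE 0.36). In both comparisons the null libraries were lower without overlap, but the nearest libraries almost met, and neither passed the edgeR test.

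Dab1 encodes the adaptor that binds the tails of both receptors (ENSMUSG00000028519.12, chromosome 4, 103619359 to 104744844, plus strand). Its mean level was 118 ± 107 CPM in glutamatergic-like cells (n = 5), 109 ± 23.9 CPM in oligodendrocyte precursors, 95.8 ± 27.6 CPM in NGFC, 95.8 ± 26.8 CPM in astrocyte-like cells and 74.4 ± 28.3 CPM in oligodendrocyte-like cells (SD). These classes did not differ beyond their spread. The first place rests on WT hippocampus 2, with 301 CPM from 13 glutamatergic-like cells and 4 Dab1 UMIs, while the other WT libraries lay at 29.7 to 104 CPM. PVALB held 45.6 ± 9.96 CPM and SST 22.1 ± 6.51 CPM, and the order of NGFC above PVALB above SST held in 6 of 6 libraries. SST cells thus had the highest mean of the ligand and the lowest of the adaptor among the 3 interneuron classes.

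Dab1 in PVALB lay at 33.2, 43.4 and 35.2 CPM in WT cortex and at 52.5, 57.6 and 51.8 CPM in WT hippocampus. The regions did not overlap, and the log2 difference of 0.54 (SE 0.26) did not pass the edgeR test. With classes by marker score it was 0.27, and the Grin1-null pairs went opposite ways (1.05 and −0.79). Inside clusters the direction split: cluster 3 had 44.4 CPM in hippocampus against 25.3 CPM in cortex, higher in 3 of 3 pairs, and cluster 24 had 73.9 CPM against 145.3 CPM, lower in 3 of 3 pairs. Cluster 24, the richer in Dab1, held 28.9%, 45.5% and 14.7% of PVALB in WT hippocampus 1, 2 and 3 and 10.9%, 13.6% and 4.88% in WT cortex 1, 2 and 3, and the part of this make-up in the class difference was not tested. In SST and NGFC the regional log2 differences of Dab1 were 0.04 and −0.17, with overlap, and each turned sign in fits with 1 library left out.

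Other genes of the 2 systems, 48 in 4 lists (teneurin partners, other ligands of the reelin receptors, proteases and regulators, and transduction), gave no call by edgeR in any comparison without the replicate block. In the region comparisons 30 of 44 genes tested in SST were higher in hippocampus, with a median log2 difference of 0.096 against 0.023 over all genes tested. In PVALB 24 of 35 were higher, with a median of 0.115 against 0.022, and in NGFC 21 of 32, with a median of 0.101 against 0.015. The 2 with the smallest p in SST were Plat, tissue plasminogen activator, which can cleave reelin, at 1.14 (SE 0.36), and Dab2, a Dab1 relative, at 1.26 (SE 0.41), both log2. With the replicate block 2 of the 44 were called in SST, where 1.5% of all genes tested were. Adgrl2, the gene of latrophilin-2, a teneurin receptor, had a log2 difference of 1.11 (edgeR adjusted p 0.00668) and stood at 24.7, 57.4 and 64.1 CPM in WT cortex 1, 2 and 3 against 66.0, 141 and 113 CPM in WT hippocampus 1, 2 and 3, higher in 3 of 3 pairs. Adamts4, a protease that cleaves reelin, had a log2 difference of 2.55 (edgeR adjusted p 0.00135) and stood at 0.380, 5.07 and 1.11 CPM against 2.13, 32.1 and 6.38 CPM, higher in 3 of 3 pairs. Adamts4 and the summed oligodendrocyte markers were both highest in WT hippocampus 2, and the part of oligodendrocyte transcripts in this was not tested.

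In PVALB between regions the smallest p belonged to Cdh2, N-cadherin, at a log2 difference of 0.92, and to Efnb2, an ephrin, at 0.96. In NGFC they belonged to Pik3r1, a subunit of PI3 kinase, at −0.76 and Efnb3 at 0.63. None of these passed.

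Between genotypes the lists gave no call. In SST 27 of 46 genes in cortex and 32 of 46 in hippocampus had a negative log2 difference, with medians of −0.088 and −0.15 against −0.02 and −0.03 over all genes tested. In PVALB 21 of 40 and 23 of 40 were negative (medians −0.045 and −0.060), and in NGFC 23 of 36 and 27 of 36 (medians −0.13 and −0.21), with the medians over all genes as given above. Single lists went either way, as with 4 of 6 teneurin partners positive in cortical PVALB and 6 of 10 proteases and regulators in cortical SST. Flrt1, a membrane protein that binds latrophilins beside teneurins, was among the 2 smallest p in hippocampal SST, at −1.16, and in cortical PVALB, at −1.60 (SE 0.50). Apoe, a ligand of both reelin receptors that astrocytes make in abundance, was among them in cortical SST at −1.09 and in hippocampal PVALB at −2.27. The second value rests on 1 library, WT hippocampus 1 with 140.1 CPM, beside 3.598 and 16.5 CPM in the other WT libraries and 18.5 and 6.77 CPM in Grin1-null. In hippocampal SST Apoe lay the other way, at 9.59, 7.05 and 13.3 CPM in WT and 24.7 and 14.3 CPM in Grin1-null, a log2 difference of 0.87. The others were Mylip at 1.89 in cortical SST, Plat at 0.79 in hippocampal SST, Dab2ip at −1.12 in cortical PVALB, Cdh2 at −0.69 in hippocampal PVALB, Mapt at −0.61 and Yes1 at 1.14 in cortical NGFC, and Lrpap1 at 0.74 and Adamts4 at −2.14 in hippocampal NGFC. For the interaction they were Apoe at 1.96 and Snx17 at 0.62 in SST, Snx17 at 0.71 and Cdh2 at −0.68 in PVALB, and Src at −1.06 and Yes1 at −1.60 in NGFC. Adamts4 in hippocampal NGFC stood at 2.57, 29.97 and 3.86 CPM in WT hippocampus 1, 2 and 3 and at 0 and 3.61 CPM in Grin1-null. Its value thus rests mainly on WT hippocampus 2. Mylip in cortical SST had 2, 4 and 9 UMIs in WT and 1 and 23 UMIs in Grin1-null.

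The genes most like each member over 21 means of class and region in WT were found among 15008 genes by Pearson correlation of log2(CPM + 1), a description in which the points share libraries. Tenm1 was closest to A930011O12Rik (r = 0.975), Bcl11b (0.967) and Gabrg3 (0.961), and Tenm2 to Ppfia3 (0.977), Kcnab2 (0.971) and Ypel4 (0.970). Tenm3 was closest to Arhgef4 (0.924), Cry2 (0.920) and 6030419C18Rik (0.915), and Tenm4 to 4930506M07Rik (0.938), Bnip3 (0.921) and Fkbpl (0.919). Reln had lower top values, with ENSMUSG00000103539.1 (0.862), Lypd6 (0.858) and Csdc2 (0.853). Vldlr was closest to Mapk8ip1 (0.946), Fez1 (0.920) and Trpc1 (0.900), Lrp8 to Adamts10 (0.929), Lgalsl (0.920) and Stx3 (0.910), and Dab1 to Galnt16 (0.915), Otub2 (0.908) and Chst2 (0.907). Between members, r was 0.911 for Tenm1 and Tenm2, 0.803 for Vldlr and Dab1, and 0.137 for the receptors Vldlr and Lrp8. Each mean weighed the same, whatever its number of cells. One came from 26 endothelial-like cells of 1 WT library, with 279 CPM of Lrp8 and 0 UMIs of Vldlr and Dab1. The part of such small classes in these correlations was not tested.

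Windows before a listed start are shown for Tenm2, the member called between the regions, and for Reln, the ligand that set the classes apart. They are RefSeq sequence of the 250 bases before that start (GRCm38.p6, 5′ to 3′ on the minus strand, every CG pair in capitals). They lie at chr11:36944242-36944491 for Tenm2 and chr5:22344706-22344955 for Reln.
Tenm2: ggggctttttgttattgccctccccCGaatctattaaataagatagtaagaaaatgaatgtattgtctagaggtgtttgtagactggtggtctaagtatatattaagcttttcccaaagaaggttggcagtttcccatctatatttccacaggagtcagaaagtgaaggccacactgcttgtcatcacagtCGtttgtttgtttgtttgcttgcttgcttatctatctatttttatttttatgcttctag
Reln: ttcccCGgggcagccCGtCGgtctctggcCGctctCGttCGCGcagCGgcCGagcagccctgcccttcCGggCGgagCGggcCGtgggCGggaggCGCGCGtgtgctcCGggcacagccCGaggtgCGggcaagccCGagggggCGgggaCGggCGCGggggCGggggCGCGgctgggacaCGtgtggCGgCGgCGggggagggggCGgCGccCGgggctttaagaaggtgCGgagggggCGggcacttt
The Tenm2 window holds 2 CG pairs at 37.2% GC, and the Reln window 37 CG pairs at 80.0% GC, against a median of 6 CG pairs and 52.4% GC over 32851 promoters of that length. The Tenm2 window lies inside the annotated gene, 291722 bases from its annotated start. Whether this window acts as a promoter was not tested, and sequence at the annotated start of Tenm2 is not shown. Its CG count therefore does not describe that start. GGGCGG, searched on both strands, matched 6 times in Reln and 0 times in Tenm2 and is in 32.7% of all promoters, and TATAAA, in 12.4% of all promoters, is in neither window.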

How the data were processed

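UMI counts per gene and cell were deposited by the authors as 4 matrices of whole numbers, 1 per region and genotype, made with Cell Ranger 2.1.1 by the submitters' processing notes, on mm10 with gene ends extended by up to 4 kb. Each matrix was split into its libraries by barcode suffix, and 26201 of 26987 barcodes with 200 to 6000 genes and at most 30% mitochondrial UMIs were kept. Cells were clustered in Seurat 5.3.0 (R 4.3.3, 2000 variable genes less 5 members, 25 dimensions, resolution 1.0). Clusters were named from marker lists; 5 clusters with 2175 cells, 0.946% to 17.5% of a library, stayed unnamed, 2 of them with SST markers, and a difference from the study may come from rebuilt names. Scrublet in scanpy 1.11.5 marked 314 cells as doublets, which were left out only as an alternative. Library sums of at least 10 cells were tested across all genes with edgeR 4.0.16 (TMM, filterByExpr, quasi-likelihood test, Benjamini-Hochberg), with DESeq2 1.42.0 as an alternative, and the p-values measure the spread between these libraries. Genotype was tested within each region in 1 fit of all 4 groups per class, and region in the WT libraries. The fit was checked on simulated counts with large planted changes and no replicate or chemistry effect. That check does not show whether differences as small as those of the members between genotypes could be found. Named are the 8 members, Grin1, the genes of the pathway lists called in a comparison or otherwise the 2 with the smallest p, and the 3 genes most like each member. Other genes called by edgeR were named after their values were seen, and marker genes were named for the cell classes. One marker of the oligodendrocyte list is not reported here and is left out of its sums. Members and lists were chosen with earlier results of these data known. All 8 members passed the filter on low counts in each of the 12 comparisons. Deviations of same-numbered WT cortex and hippocampus libraries, which share preparation and chemistry, correlated across genes at 0.614, 0.562 and 0.359 in SST, 0.492, 0.539 and 0.308 in PVALB and 0.459, 0.363 and 0.140 in NGFC for replicates 1, 2 and 3, so the replicate number was taken to pair them. Python 3.11.15, numpy 2.4.6, scipy 1.17.1, pandas 2.3.3 and matplotlib 3.10.9 were used for shares, exact tests and plots. Alternatives were library-size scaling, no low-count filter, the replicate block, an adjusted p under 0.05, sums of at least 20 cells, resolution 0.6, classes by marker score, a stricter cell filter (at least 1000 genes, at most 10% mitochondrial UMIs), shares without thinning or thinned to 2000 UMIs, each library left out and, chosen after seeing the data, unnamed SST-marker clusters counted as SST.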

Additional observations from a re-analysis of the deposited data

How the results depend on the processing

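Of 1816 values of the 8 members under alternatives, 1804 kept their side of the threshold and direction, and no called value reversed; among values that were never called, 117 changed sign, in 52 of 96 results. Tenm3 gained a call in 5 alternatives and Tenm2 in SST lost its call in 7, its log2 difference staying between 2.19 and 2.29 in those. Counts of called genes moved as follows, and their causes were not tested. Without the low-count filter the genotype counts were 30 in SST cortex, 16 in SST hippocampus, 51 in PVALB cortex, 13 in PVALB hippocampus, 2 in NGFC cortex and 25 in NGFC hippocampus, the interaction in SST gave 3, and the region counts were 153 in SST, 82 in PVALB and 30 in NGFC. DESeq2 gave genotype counts of 2 in SST cortex, 1 in SST hippocampus, 12 in PVALB cortex, 1 in PVALB hippocampus and 1 in NGFC hippocampus, and region counts of 111 in SST, 25 in PVALB and 4 in NGFC. An adjusted p under 0.05 gave 1 in SST cortex, 1 in SST hippocampus and 9 in PVALB cortex for genotype, and 28 in SST and 9 in PVALB for region. Classes by marker score gave 2 for genotype in PVALB cortex and 2 in SST and 1 in PVALB for region. With unnamed SST-marker clusters counted as SST, an alternative chosen after seeing the data, the region count in SST was 3. With the replicate block the region counts were 180 in SST, 54 in PVALB and 4 in NGFC, and the genotype count in PVALB cortex was 4; it changed no other call of a member than those given. Genotype groups share only numbers 1 and 2, which also differ in chemistry, with correlations within a region of 0.185 to 0.323; the genotype tests did not pair them, and with the replicate block 0 members were called between genotypes. Leaving out 1 library gave 0 to 5 genes for genotype in PVALB cortex, 0 to 0 for region in PVALB and 0 to 5 for region in SST. Differences in the Reln share changed sign without thinning in NGFC cortex (8.37 points), NGFC hippocampus (13.6) and SST hippocampus (5.18), with the stricter cell filter (0.564) and at 2000 UMIs (0.350) in NGFC cortex, and with classes by marker score in NGFC hippocampus (0.604). Without 1 library they ran from −1.96 to 0.380 points in NGFC cortex, −1.56 to 0.919 in NGFC hippocampus, −10.5 to 5.82 in SST cortex and −8.93 to 1.73 in SST hippocampus. With classes by marker score the class with the highest level was the same for 5 of the 8 genes: Tenm4 moved to choroid plexus-like cells (116 CPM), Reln to Cajal-Retzius-like cells (385 CPM) and Dab1 to oligodendrocyte precursors (97.2 CPM). Where a group held 1 null library, in cortical NGFC or after leaving out a library, that library is assumed to vary like the other groups. In NGFC the 5 cells of Grin1-null cortex 1 and the shallow WT hippocampus 2 limit what the depth can show.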
